A study of Mus musculus with 6 samples.

Results

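Genes of the skeletal muscle fibre were followed in 6 subcutaneous tumours of G422, a mouse glioblastoma cell line. The list holds 37 genes chosen by symbol, and all 37 were found among the 54532 Ensembl gene IDs of the count matrix. In 3 tumours the inoculated cells stably carried a hairpin whose name points to Ngb, the neuroglobin gene (shNgb), and in the other 3 they carried its empty vector (shVec). Lentivirus delivered both, and the untreated hosts were Kunming mice, an outbred stock. Whether the infected cells were a pool or a clone is not stated. Neither the age nor the sex of the mice is given, and whether each tumour came from its own mouse is not stated. The line and the host are both mouse, so the reads of a muscle gene cannot be assigned to tumour cells or to host tissue from these counts. In whole tumours, fewer cells of a type and less RNA per cell cannot be told apart.

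A skeletal muscle fibre contracts when myosin of the thick filament pulls on actin of the thin filament, between Z-discs that anchor both. Calcium released from the sarcoplasmic reticulum binds troponin on the thin filament and allows the pull, and a calcium pump ends it. Fast and slow fibres carry different isoforms of myosin, troponin and the calcium pump. Subcutaneous tissue of the mouse includes a thin sheet of skeletal muscle, the panniculus carnosus.

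Libraries held 19630319 to 25620667 reads assigned to genes, with 22158 to 23303 genes detected and 1.27% to 1.46% of reads from mitochondrial transcripts. Ngb itself had 18, 19 and 11 reads in the shNgb libraries, against 28, 23 and 13 in the shVec libraries. The groups overlapped, and its log2 fold change was -0.59 (SE 0.42, edgeR adjusted p = 0.9997). The description of the design names Ngb rather than a hairpin as what was transfected, and the sample labels were followed.

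Muscle genes were scarce in every tumour, and their sum differed more among the vector tumours than between the groups. The members took 0.00338%, 0.00423% and 0.00308% of the reads of shNgb tumours 1, 2 and 3, against 0.00346%, 0.00742% and 0.00416% in shVec tumours 1, 2 and 3. The exact (Clopper-Pearson) 95% interval was 0.00705% to 0.00781% in shVec 2, and the other 5 libraries had intervals between 0.00287% and 0.00450%, which cover counting error only. Scaled to a common library size as CPM (reads scaled to library size with TMM factors), the summed level was 34.3, 41.6 and 30.3 CPM in the shNgb tumours, against 35.4, 74.8 and 41.5 CPM in the shVec tumours. The group means were 35.4 ± 5.76 CPM in shNgb and 50.6 ± 21.2 CPM in shVec (SD, n = 3 each), and the groups overlapped. Without shVec 2 the mean of the shVec tumours was 38.5 CPM, and the difference of shNgb minus shVec was -3.07 CPM, against -15.2 CPM with all 6 tumours.

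**Figure D1:**
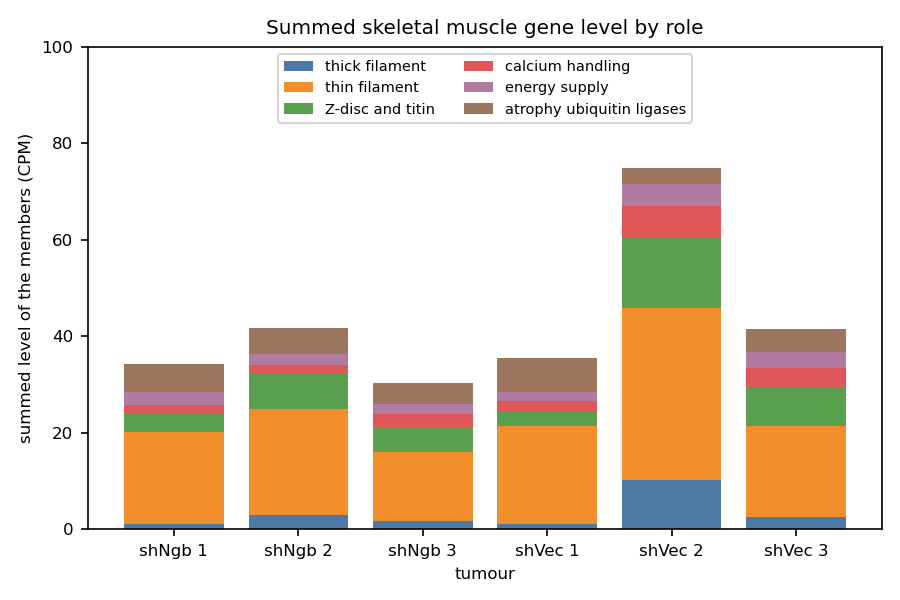
Summed level of the 37 muscle genes in each tumour in CPM, stacked by role in the fibre, with shNgb tumours on the left and shVec tumours on the right. The bar of shVec 2 reaches 74.8 CPM and the other 5 stand between 30.3 and 41.6 CPM, with thin filament genes the largest layer in all 6.

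Detection differed from member to member and from tumour to tumour. Of the 37, 18 had reads in all 6 tumours, 18 had reads in some tumours and 0 in at least 1, and Ckmt2, the mitochondrial creatine kinase of muscle, had 0 reads in all 6. Of the defining fibre markers, Acta1, Mylpf, Tnnt3, Atp2a1, Ryr1 and Neb had reads in all 6 tumours, and Ckm had at most 5 reads in any. A count of 0 allows up to 3 reads, or 0.115 to 0.153 CPM depending on the library. In the shNgb tumours 14, 3 and 7 members were at 0 reads, against 18, 3 and 6 in the shVec tumours. Members were also split, after their values were seen, by whether a library held 0 of their reads, so the tumours that supplied the zeros are low in the first sum by construction and the split supports nothing further. The members that reached 0 somewhere summed to 0.675, 4.03 and 1.34 CPM in the shNgb tumours, against 0.0911, 10.9 and 3.06 CPM in the shVec tumours. The difference between the group means of this sum, -2.66 CPM, had the opposite sign (0.44 CPM) without shVec 2. The members with reads in every tumour summed to 33.6, 37.6 and 28.9 CPM in the shNgb tumours, against 35.3, 64.0 and 38.5 CPM in the shVec tumours.

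**Figure D2:**
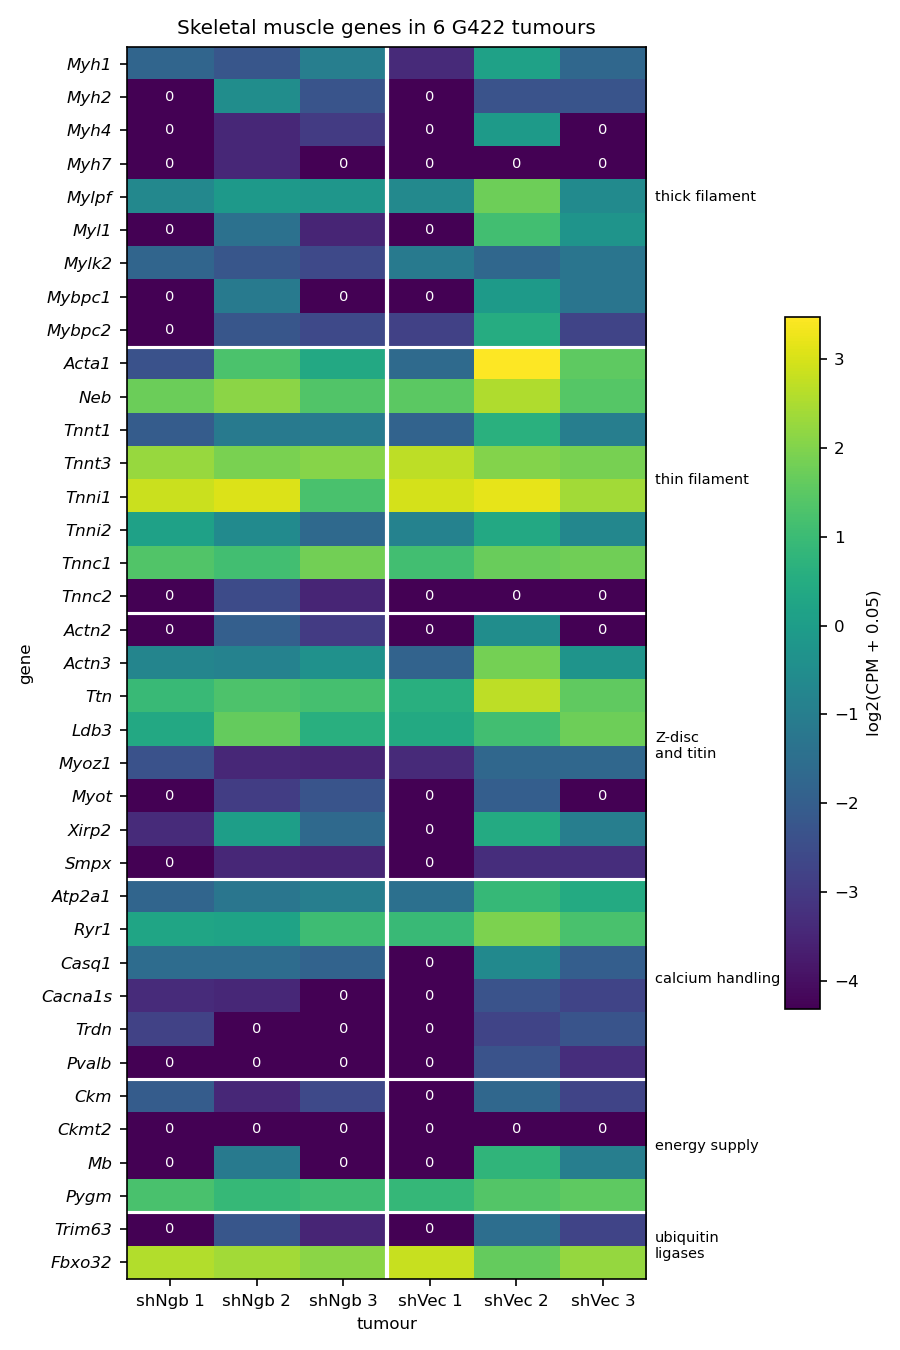
Level of each of the 37 members (rows, grouped by role) in each of the 6 tumours (columns, shNgb left of shVec), as log2(CPM + 0.05), with a 0 written where a library had no read. Empty cells gather in shNgb 1 (14 genes) and shVec 1 (18 genes), while Tnni1, Tnnt3, Tnnc1, Neb, Pygm and Fbxo32 are filled in all 6.

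Of the 36 members with reads, 24 were highest in shVec 2, 5 in shVec 3, 3 in shVec 1, 3 in shNgb 2, 1 in shNgb 3 and 0 in shNgb 1. Among the 15203 genes tested, 13.9% were highest in shVec 2, 16.4% in shVec 3, 17.3% in shVec 1, 17.5% in shNgb 2, 21.9% in shNgb 3 and 12.9% in shNgb 1, and among the 12631 genes with reads that were too low to test, 15.4% were highest in shVec 2. The 14 tested members had 9 highest in shVec 2 and the 22 lower ones with reads had 15. Of the 19 members with 40 or more reads in all, Acta1, Myl1, Mb and Actn3 had over 50% of their scaled reads in that tumour alone, where an equal share of 6 tumours is 16.7%. The list was drawn up with earlier results of these libraries known, so these counts describe it and are no test.

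Compared per length, as the authors' FPKM (fragments per kilobase of gene, scaled to library size), the order of the members differed between the groups. In shNgb tumours Tnnt3 averaged 2.65 ± 0.357 FPKM, Tnnc1 2.57 ± 0.643 and Tnni1 1.63 ± 0.881, followed by Acta1 at 0.806 ± 0.707 and Fbxo32 at 0.730 ± 0.119. In shVec tumours Acta1 averaged 3.07 ± 3.66 FPKM, Tnnt3 2.97 ± 0.962, Tnnc1 2.78 ± 0.643, Tnni1 2.02 ± 0.534 and Mylpf 1.41 ± 1.47 (SD, n = 3 each). Neighbours in both orders lay within the larger SD of each pair, except Tnnc1 and Tnni1, which lay slightly farther apart in both groups. In shVec Acta1 had the widest SD of the members, with 0.177, 7.18 and 1.85 FPKM in tumours 1, 2 and 3. In shNgb the widest SD was that of Tnni1.

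The thin filament held the most reads. Acta1, the actin of adult skeletal muscle (chromosome 8, 123891769 to 123894751, minus strand, GRCm38), had 3, 57 and 33 reads in the shNgb tumours, against 6, 220 and 56 in the shVec tumours. Its level was 0.145, 2.35 and 1.27 CPM in shNgb, against 0.273, 11.1 and 2.85 CPM in shVec. Tumour 1 of each group was low, shVec 2 was high, and the groups overlapped. The highest tumour exceeded the lowest 16.2-fold within shNgb and 40.6-fold within shVec. The log2 fold change was -1.89 (SE 1.28, 95% interval -5.01 to 1.22, edgeR adjusted p = 0.9997), and -0.29 without shVec 2.

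Promoter windows are shown for Acta1 and Myh4, which were mostly in shVec 2, and for Tnni1, which was present in all 6 tumours. The genes were picked by these levels, so the windows cannot show whether a motif goes with the tumour. They are RefSeq windows from 250 bases before to 50 bases after a transcription start in build GRCm38.p6. Capitals mark CArG boxes (the site of serum response factor), MEF2 sites (the site of the MEF2 factors of muscle) and TATA boxes (TATAAA), found on either strand.

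Acta1 (chr8:123894726-123895025, minus strand): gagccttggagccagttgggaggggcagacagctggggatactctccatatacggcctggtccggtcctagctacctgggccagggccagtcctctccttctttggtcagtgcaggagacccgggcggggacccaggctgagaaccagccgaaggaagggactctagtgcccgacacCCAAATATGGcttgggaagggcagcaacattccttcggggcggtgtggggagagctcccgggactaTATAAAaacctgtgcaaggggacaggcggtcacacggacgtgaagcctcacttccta

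Myh4 (chr11:67237562-67237861, plus strand): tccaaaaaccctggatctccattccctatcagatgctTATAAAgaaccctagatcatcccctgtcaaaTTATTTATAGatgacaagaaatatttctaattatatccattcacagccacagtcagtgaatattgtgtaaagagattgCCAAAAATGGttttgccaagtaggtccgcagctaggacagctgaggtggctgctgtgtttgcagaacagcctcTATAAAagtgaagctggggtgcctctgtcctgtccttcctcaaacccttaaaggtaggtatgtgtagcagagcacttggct

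Tnni1 (chr1:135799171-135799470, plus strand): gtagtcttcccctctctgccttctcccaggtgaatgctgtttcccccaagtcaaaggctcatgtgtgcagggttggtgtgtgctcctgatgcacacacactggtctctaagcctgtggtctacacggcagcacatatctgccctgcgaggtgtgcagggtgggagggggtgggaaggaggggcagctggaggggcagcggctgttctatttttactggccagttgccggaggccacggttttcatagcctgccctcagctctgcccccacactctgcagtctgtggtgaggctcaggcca

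The Acta1 window held 1 CArG box, CCAAATATGG, which begins 73 bases before the start. The Myh4 window held the CArG box CCAAAAATGG 104 bases before the start and the MEF2 site TTATTTATAG 182 bases before it, which overlaps a TATA box. The Tnni1 window held no match to these 3 motifs and 4 matches to the E-box CANNTG, the site of MYOD and other basic helix-loop-helix factors. Another listed Tnni1 window held 2 E-boxes and none of these 3 motifs. Both windows lie inside the annotated gene, which begins at 135779434, and the bases before that position were not read. Windows were listed for 28 of the 37 members. A CArG box was in 3 of the 28, against 1.57% of all 27025 genes with a window, a MEF2 site in 5 of 28 (17.9%), against 3.26%, a TATA box in 7 of 28 (25.0%), against 14.2%, and an E-box in 22 of 28 (78.6%), against 72.1%. Besides Acta1 and Myh4, the CArG box was in Ldb3, which was highest in shVec 3. Myl1, Mb, Actn2, Mybpc2, Pvalb and Myh4 had larger shares of their scaled reads in shVec 2 than Acta1. Of these, Pvalb and Myh4 held a MEF2 site and Myh4 a CArG box, and the others held neither. All are letter matches in a window and were not tested for binding or use, or for a link to the levels.

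Troponins differed in their spread over the tumours. Tnni1, the inhibitory troponin of slow fibres, was the member of most reads, at 7.14, 8.35 and 2.30 CPM in the shNgb tumours, against 7.79, 8.97 and 5.19 CPM in the shVec tumours. It was lowest in shNgb 3, and the other 5 tumours lay between 5.19 and 8.97 CPM. Tnnt3, the tropomyosin-binding troponin of fast fibres, stood at 4.82, 3.74 and 4.10 CPM in shNgb, against 6.47, 4.03 and 3.66 CPM in shVec. Tnnc1, the calcium-binding troponin of slow fibres and heart, stood at 2.51, 2.14 and 3.45 CPM in shNgb, against 2.14, 3.18 and 3.41 CPM in shVec. The groups overlapped in all 3 genes. The log2 fold change was -0.31 (SE 0.45) for Tnni1, -0.16 (SE 0.27) for Tnnt3 and -0.10 (SE 0.29) for Tnnc1.

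Tnni2, the fast inhibitory troponin, had 1.06, 0.617 and 0.268 CPM in shNgb, against 0.501, 1.26 and 0.560 CPM in shVec, with overlap (log2 fold change -0.27, SE 0.57). Tnnt1, the slow tropomyosin-binding troponin, was too low to test and had 4, 10 and 11 reads in shNgb, against 5, 30 and 9 in shVec. Tnnc2, the fast calcium-binding troponin, had 0, 3 and 1 reads in shNgb and 0 in all 3 shVec libraries. Of its exon bases, 74.0% are shared with Ube2c on the opposite strand, a mitotic gene with 15542 reads, and the library kit does not mark strand, so its low count is uncertain. Neb encodes nebulin, which spans the thin filament. It stood at 3.23, 4.32 and 2.49 CPM in shNgb, against 2.78, 5.75 and 2.65 CPM in shVec, again highest in shVec 2 and overlapping (log2 fold change -0.15, SE 0.36).

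**Figure D3:**
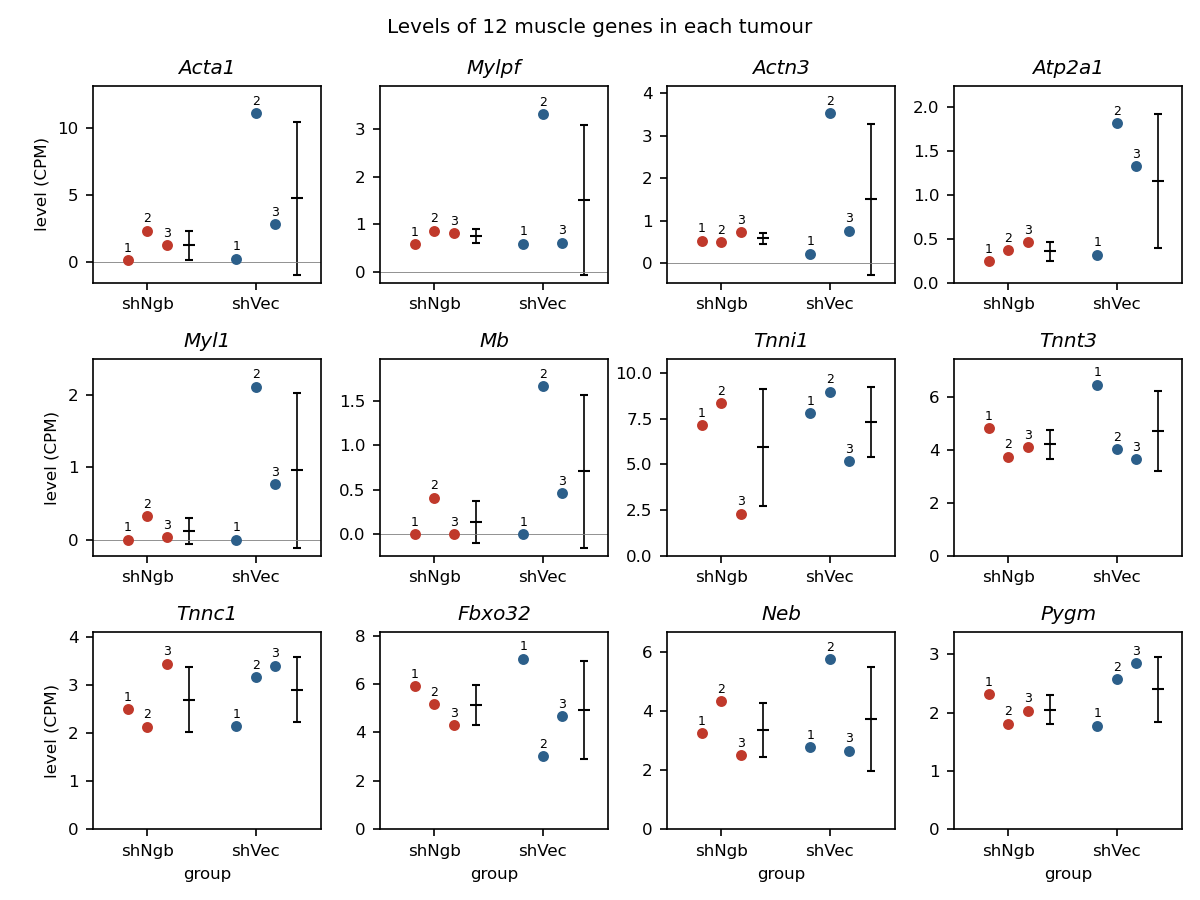
Level in CPM of 12 members in each tumour (numbered points), with mean and SD (n = 3) beside each group, shNgb left of shVec. Acta1, Mylpf, Actn3, Myl1 and Mb have shVec 2 far above the other 5 tumours, whereas Tnni1, Tnnt3, Tnnc1, Fbxo32 and Pygm do not.

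The thick filament genes were the most uneven group, with a sum of 1.06, 2.84 and 1.76 CPM in the shNgb tumours, against 1.14, 10.1 and 2.60 CPM in the shVec tumours. Mylpf, the regulatory light chain of fast myosin, had 12, 21 and 21 reads in shNgb, against 13, 66 and 12 in shVec. Its level was 3.33 CPM in shVec 2 and between 0.579 and 0.864 CPM in the other 5 tumours. Its log2 fold change of -0.99 (SE 0.69, edgeR adjusted p = 0.9997) was 0.32 without shVec 2.

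Myl1, an essential light chain of fast myosin, had 0, 8 and 1 reads in shNgb, against 0, 42 and 15 in shVec, and was too low to test. Over 421 of the 1082 bases of its transcript it is 99.3% identical to the pseudogene Mylf-ps, which had 0, 10 and 10 reads in shNgb and 0, 16 and 3 in shVec, so its own count is uncertain. Of the fast myosin heavy chains, Myh1 (type IIx) had 5, 4 and 12 reads in shNgb, against 1, 21 and 5 in shVec. Myh4 (type IIb) had 0, 1 and 2 reads in shNgb, against 0, 18 and 0 in shVec, so 88.5% of its scaled reads were in shVec 2. Myh2 (type IIa) went the other way, with 0, 16 and 4 reads in shNgb, against 0, 3 and 3 in shVec, and was highest in shNgb 2. These 3 genes lie side by side on chromosome 11, and the transcripts of Myh1 and Myh2 are 90.8% identical over 5901 bases. That is under the 95% set for near-identical transcripts. How reads that match more than 1 of them were counted is not given, so the division of such reads is uncertain.

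Myh7, the slow and cardiac myosin heavy chain, had 1 read in all, in shNgb 2. Mybpc2 and Mybpc1, the fast and slow myosin-binding proteins C, were also highest in shVec 2. Mybpc2 had 0, 4 and 3 reads in shNgb, against 2, 27 and 2 in shVec. Mybpc1 had 0, 10 and 0 reads in shNgb, against 0, 18 and 7 in shVec. Mylk2, the kinase of the skeletal myosin light chain, had 5, 4 and 3 reads in shNgb, against 9, 5 and 7 in shVec. It was below the filter, and its levels of 0.115 to 0.241 CPM in shNgb and 0.252 to 0.410 CPM in shVec did not overlap at these few reads. Among the 14 tested members, 0 had groups without overlap, against 3.43% of all tested genes lower and 3.67% higher in shNgb.

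Fast isoforms and slow isoforms were both present. The 13 genes of fast fibres summed to 7.76, 7.86 and 7.47 CPM in the shNgb tumours, against 8.25, 20.3 and 8.45 CPM in the shVec tumours. The 5 genes of slow fibres summed to 9.84, 11.3 and 6.17 CPM in shNgb, against 10.2, 14.6 and 9.42 CPM in shVec. The fast sum was highest in shVec 2, and Tnnt3 alone gave 4.82 of its 7.76 CPM in shNgb 1 and 6.47 of its 8.25 CPM in shVec 1. Most of the slow sum was Tnni1 and Tnnc1.

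At the Z-disc, Actn3, the alpha-actinin of fast fibres, had 11, 12 and 19 reads in shNgb, against 5, 70 and 15 in shVec. Only shVec 2 stood apart, at 3.53 CPM against 0.228 to 0.764 CPM in the other 5. The log2 fold change of -1.34 (SE 0.86, edgeR adjusted p = 0.9997) was 0.26 without that tumour. Actn2, the sarcomeric alpha-actinin of all fibres and heart, had 0, 5 and 2 reads in shNgb, against 0, 13 and 0 in shVec.

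Ttn, which encodes the giant spring protein titin, stood at 1.88, 2.39 and 2.22 CPM in shNgb, against 1.46, 6.45 and 2.95 CPM in shVec (log2 fold change -0.74, SE 0.48). Per length it was low, at 0.0184 ± 0.00211 FPKM in shNgb and 0.0308 ± 0.0218 FPKM in shVec, since its exons cover 116825 bases. Ldb3, a PDZ and LIM domain protein of the Z-disc, had another order of tumours. It stood at 1.25, 3.09 and 1.46 CPM in shNgb, against 1.28, 2.12 and 3.36 CPM in shVec, with shVec 3 and shNgb 2 highest (log2 fold change -0.21, SE 0.46). Xirp2, an actin-binding protein of the cell junction, had 1, 24 and 7 reads in shNgb, against 0, 26 and 9 in shVec, so shNgb 2 and shVec 2 were alike. Myoz1 had at most 5 reads in a library, Myot at most 4 and Smpx at most 1.

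The calcium genes Atp2a1 and Ryr1 had the smallest p-values of the 14 tested members. Atp2a1, the calcium pump SERCA1 of fast fibres, had 5, 9 and 12 reads in shNgb, against 7, 36 and 26 in shVec. Its level was 0.241, 0.370 and 0.460 CPM in shNgb, against 0.319, 1.81 and 1.32 CPM in shVec, so shVec 1 lay among the shNgb tumours. The log2 fold change was -1.65 (SE 0.62, 95% interval -3.05 to -0.25, unadjusted p = 0.0261 and adjusted p = 0.9997 in edgeR), and -1.16 (95% interval -2.72 to 0.40) without shVec 2. Rabep2 shares 21.9% of the exon bases of Atp2a1 on the opposite strand and had 20.6 ± 3.80 CPM in shNgb and 21.4 ± 3.56 CPM in shVec, far above Atp2a1 in both groups, so the count of Atp2a1 is uncertain.

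Ryr1, the calcium release channel of skeletal muscle, stood at 1.16, 1.11 and 2.03 CPM in shNgb, against 1.91, 3.78 and 2.29 CPM in shVec. Here shNgb 3 lay above shVec 1, and the other values were in separate ranges. The log2 fold change was -0.88 (SE 0.37, 95% interval -1.73 to -0.04, unadjusted p = 0.0425 and adjusted p = 0.9997 in edgeR), and -0.54 without shVec 2. Casq1, which stores calcium in the reticulum, had 6, 7 and 6 reads in shNgb, against 0, 12 and 4 in shVec. Cacna1s, the voltage sensor, Trdn, a junctional anchor, and Pvalb, the calcium buffer of fast fibres, had at most 3 reads in any library, and Pvalb had 0 in all 3 shNgb libraries.

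Energy genes differed among themselves. Pygm, the glycogen phosphorylase of muscle, stood at 2.31, 1.81 and 2.03 CPM in shNgb, against 1.78, 2.57 and 2.85 CPM in shVec, an even level with overlap (log2 fold change -0.22, SE 0.28). Mb, the oxygen store myoglobin, had 0, 10 and 0 reads in shNgb, against 0, 33 and 9 in shVec. Ckm, the cytosolic creatine kinase of muscle, is among the most abundant transcripts of mature fibres. It had 4, 1 and 3 reads in shNgb, against 0, 5 and 2 in shVec, below the level at which tumours could be compared.

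The ubiquitin ligases of muscle wasting differed from each other. Fbxo32 (atrogin-1) stood at 5.93, 5.18 and 4.29 CPM in shNgb, against 7.06, 3.02 and 4.68 CPM in shVec. It was lowest in shVec 2, where Acta1 was highest, and it was the 1 tested member with a positive log2 fold change, 0.06 (SE 0.31). Trim63 (MuRF1) had 0, 4 and 1 reads in shNgb, against 0, 6 and 2 in shVec.

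In the comparison of the groups over all genes, 14 of the 37 members had enough reads to be tested and 23 did not. EdgeR's quasi-likelihood test called 0 of the 14 at an adjusted p under 0.05, as it called 0% of the 15203 genes tested. An unadjusted p under 0.05 was reached by 2 members, Atp2a1 and Ryr1, both lower in shNgb, against 2.58% of all tested genes (1.22% lower and 1.35% higher). DESeq2 called 5 genes, 0.0302% of those with an adjusted p (0.0121% higher and 0.0181% lower), and 0 members, with 2 members at an unadjusted p under 0.05. Limma-voom called 0% of genes and 0 members, with 1 at an unadjusted p under 0.05. EdgeR without the filter called 0.0108% of genes and with a replicate block 0.00658%, all lower in shNgb and 0 of them members, with 2 members at an unadjusted p under 0.05 in each. The log2 fold change was below 0 in 13 of the 14, against 49.1% of all tested genes, with a median of -0.29, against 0.00 over all tested genes. Without shVec 2, 10 of these 14 were below 0, and their median was -0.15. Genes enter the test by their reads in 3 or more libraries, so the 14 do not stand for all members.

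**Figure D4:**
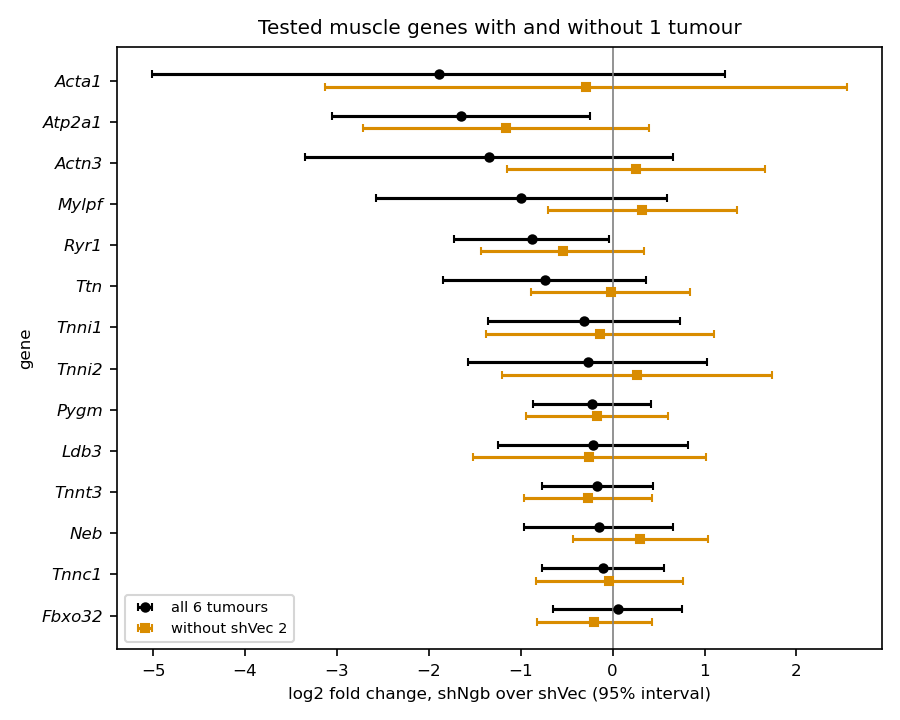
Log2 fold change of shNgb over shVec with 95% intervals for the 14 tested members, with all 6 tumours (circles) and without shVec 2 (squares). Intervals of Atp2a1 and Ryr1 lie below 0 with all tumours and span 0 without shVec 2, and Actn3, Mylpf, Neb, Tnni2 and Fbxo32 change sign.

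The spread inside groups was wide for these genes. The biological coefficient of variation (the variation between tumours of a group beyond counting error, from edgeR) had a median of 0.389 over the 14 tested members, against 0.148 over all tested genes. At the low level of the members the fitted trend over all genes had a median of 0.309, and 11 of the 14 lay above their trend. Acta1 was at 1.03 where the trend was 0.300, and Actn3 at 0.680 where it was 0.340. Tnnt3 (0.249 with a trend of 0.276), Tnnc1 (0.263 with 0.303) and Pygm (0.243 with 0.315) lay below it.

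Further genes of the muscle fibre, 60 that are not members, were read off from the same fit. Of the 59 with reads, 30 were highest in shVec 2. EdgeR called 0 of the 25 tested, with 15 below and 10 above 0 and a median log2 fold change of -0.02. An unadjusted p under 0.05 in edgeR was reached by 4 (Fabp3 higher, and Tpm2, Gys1 and Unc45b lower), against 2.58% of all tested genes. These 4 are named for their p-values, and Fabp3 and Unc45b entered the test through the group where they were high. The 4 of most reads were the tropomyosins Tpm3, Tpm1 and Tpm2, which many cell types share, and Fhl3. Tpm3 stood at 374 ± 25.8 CPM in shNgb and 373.5 ± 21.8 CPM in shVec, and Tpm2 at 121.5 ± 12.6 CPM in shNgb and 141 ± 10.1 CPM in shVec. Tpm1 stood at 338 ± 39.2 CPM in shNgb and 344 ± 34.5 CPM in shVec, and Fhl3 at 75.0 ± 2.21 CPM in shNgb and 73.5 ± 1.99 CPM in shVec (SD, n = 3 each). With these genes in it, the summed level of the list was 1062 ± 47.1 CPM in shNgb and 1103 ± 23.7 CPM in shVec. Genes named from here on that are not members were chosen after their values were seen, the tissue markers at 0 included. Excepted are Mef2d, Mef2a, Ncam1, Tnnt2, Adipor2, Scd1, Lpl, Fabp4, Krt10, Sfn and Lor, which were among those of most reads in their lists. Unc45b, a chaperone of muscle myosin, had 4, 7 and 2 reads in shNgb, against 16, 14 and 11 in shVec. It had no peak in shVec 2 (log2 fold change -1.82, SE 0.53, edgeR adjusted p = 0.9997), and its groups did not overlap. Of the 25 tested genes, 2 were lower in shNgb without overlap (Unc45b and Gys1) and 1 higher, against 3.43% and 3.67% of all tested genes. Unc45b entered the test through its shVec reads, where it was high, so its fold change supports nothing further. Des, the intermediate filament desmin of all muscle types, stood at 0.820, 3.00 and 3.22 CPM in shNgb, against 0.683, 10.6 and 2.85 CPM in shVec, the same low and high tumours as Acta1. Myom2, a protein of the M-line, had 0, 3 and 3 reads in shNgb, against 0, 35 and 1 in shVec. Sln, the inhibitor of the calcium pump, had 0 reads in all 3 shNgb libraries, against 0, 20 and 1 in shVec.

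Of the 20 regulators of muscle formation and satellite cell genes, 16 had reads and 6 of these were highest in shVec 2. Cdh15, a cadherin of satellite cells, had 1, 3 and 8 reads in shNgb, against 11, 7 and 6 in shVec, and was highest in shVec 1. Myog, Myod1 and Pax7 had most of their reads in shVec 2. Myog, the transcription factor myogenin of differentiating myoblasts, had 0, 0 and 3 reads in shNgb, against 0, 25 and 3 in shVec. Myod1, which commits cells to muscle, had 0 reads in all 3 shNgb libraries, against 0, 10 and 1 in shVec. The myosins of embryonic and newborn muscle, which regenerating adult fibres also express, were also read. Myh3 (embryonic) had 0, 6 and 3 reads in shNgb, against 0, 9 and 3 in shVec. Myh8 (perinatal) had 0, 9 and 0 reads in shNgb, against 0, 26 and 19 in shVec. Pax7, the marker of satellite cells, had 2 reads in all, both in shVec 2. Myf6 had 1 read in all, in shNgb 3, and Myf5 had 0. With at most 6 reads in all, Mymk and Mymx were highest in shVec 3 and Chrng in shNgb 2. The factors of this list with most reads, Mef2d and Mef2a, are not limited to muscle. Mef2d stood at 168 ± 3.88 CPM in shNgb and 169 ± 14.3 CPM in shVec, and Mef2a at 125.5 ± 19.8 CPM in shNgb and 134 ± 10.3 CPM in shVec. Ncam1, an adhesion molecule shared with nerve cells, stood at 21.8 ± 3.96 CPM in shNgb and 28.2 ± 3.95 CPM in shVec. EdgeR called 0 of the 6 tested genes of the list, and Ncam1 alone had an unadjusted p under 0.05, against 2.58% of all tested genes.

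**Figure D5:**
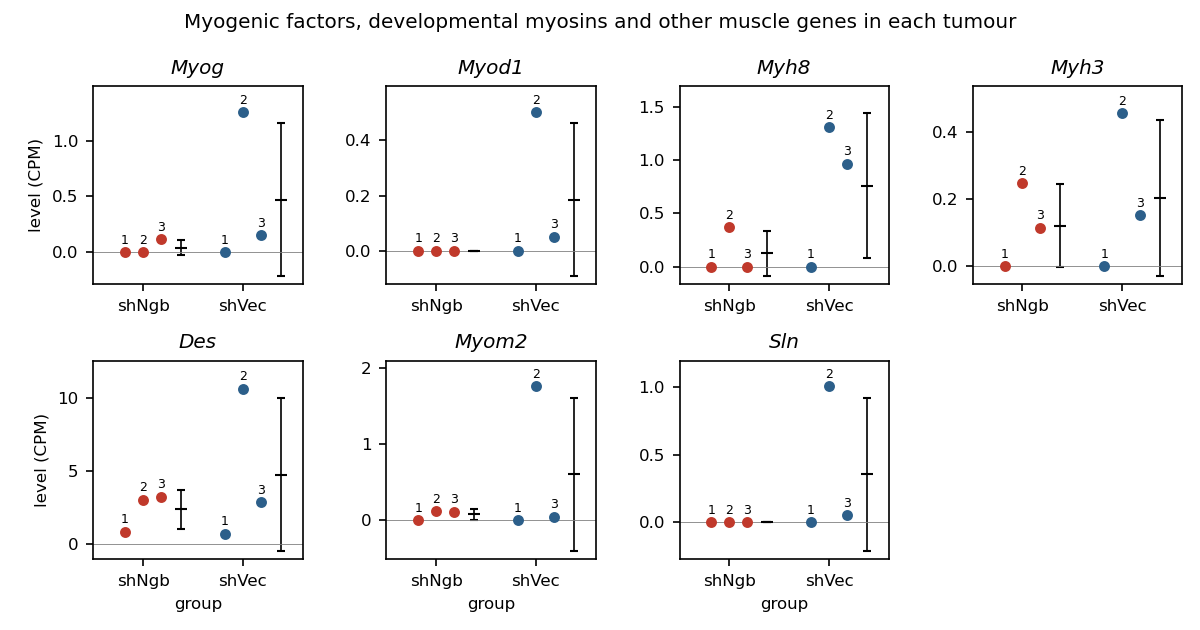
Level in CPM of Myog, Myod1, Myh8, Myh3, Des, Myom2 and Sln, which are not members, in each tumour (numbered points), with mean and SD (n = 3) beside each group, shNgb left of shVec. ShVec 2 is highest in each of these genes, and shNgb 1 and shVec 1 are at 0 in all but Des. The genes were chosen after their values were seen and do not stand for their lists.

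Markers of other tissues were set beside the muscle genes. Cardiac muscle genes other than Tnnt2 had at most 12 reads in a library, and Myh6 and Myl7 had 0 in all 6. Tnnt2, the cardiac troponin T that some other cells also express, stood at 46.3, 34.5 and 43.7 CPM in shNgb, against 53.5, 51.8 and 55.1 CPM in shVec. These values did not overlap (log2 fold change -0.37, SE 0.12, edgeR adjusted p = 0.9997), and shVec 2 was not the highest. Of all tested genes, 3.43% were lower in shNgb without overlap.

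The 8 Schwann cell and nerve markers summed to 15.9 to 16.5 CPM in shNgb and 16.7 to 18.9 CPM in shVec. Of the 9 smooth muscle markers, 4 were highest in shVec 2, Des included, and their sum was 114 to 128 CPM in shNgb and 114 to 153 CPM in shVec. Of the 12 adipocyte markers, 2 were highest in shVec 2, and their sum was 101 to 227 CPM in shNgb and 139 to 190.5 CPM in shVec. Adipor2 (10836 reads in all) and Scd1 (9761) held most of these reads. Lpl had 322 reads in all, Fabp4 263 and Plin4 191, whereas Adipoq, Plin1, Cidec, Lep and Retn had at most 2 reads in a library. Of the 11 skin epithelium markers, 2 were highest in shVec 2, and their sum was 6.82 to 9.54 CPM in shNgb and 6.93 to 8.16 CPM in shVec. Krt10 had 698 reads in all, Sfn 226 and Lor 87, whereas Krt5, Krt1, Flg and Dsg1a had 0 reads in all 6 tumours. Fibroblast markers had 1 of 10 highest in shVec 2, with a sum of 1244 to 2493 CPM in shNgb and 1733 to 2076 CPM in shVec, and Dcn, the decorin of fibrous tissue, was that gene, at 27.2, 14.2 and 3.79 CPM in shNgb, against 6.79, 32.4 and 3.77 CPM in shVec. Endothelial markers had 1 of 9 highest in shVec 2, macrophage markers 0 of 8 and red blood cell markers 1 of 6. The part of any of these tissues in the muscle values was not tested.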

How the data were processed

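Per the labels' protocols, RNA was extracted from 6 subcutaneous tumours with Trizol and made into libraries with the Illumina TruSeq RNA kit. The submitters' processing notes name Bowtie 0.12.2 and list both mm8 and mm10, with no role for either. How reads were counted, and on which annotation, is not given in the sources used here. What the authors deposited was raw read counts per Ensembl gene and a table of FPKM per tumour. The deposited FPKM matched scaled counts to within a relative 5e-09 in the 11113 genes whose libraries all exceeded 50 reads. A cell line field carries a running number that differs per sample, and the titles were used for groups.

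Symbols and positions came from GENCODE M21 (GRCm38), which named 54409 of 54532 IDs. EdgeR 4.0.16 in R 4.3.3 filtered genes (filterByExpr), scaled by TMM and ran the robust quasi-likelihood test, with Benjamini-Hochberg adjustment over all tested genes and a call at 0.05. Standard errors were derived from the F statistic. P-values rest on the spread among tumours that the series' design calls independent. DESeq2 1.42.0, limma-voom (limma 3.58.1), other scalings and filters, a replicate block and leaving out each tumour were alternatives. The fit was tested on simulated data. Near-identical transcripts were sought with blastn 2.17.0, requiring 95% identity over 250 aligned bases.

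The members, lists, tests and alternatives were chosen with earlier results of these data known. The naming rule took the 15 members of most reads and at least 2 per role, and up to 4 genes of most reads per further list, of which a few are not reported here.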

Additional observations from a re-analysis of the deposited data

How the results depend on the processing

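Over all genes edgeR called 0, DESeq2 5 (Hmgn2, Col1a1, Rpl17-ps10, Ppp1r15a and Klf4), edgeR without the filter 3 (Klf4, Ppp1r15a and Nlrp1c-ps) and edgeR with a replicate block 1 (Rpl17-ps10). Members called stayed at 0 under the alternatives run. Over all tested genes, deviations from the group means correlated at 0.256, -0.146 and -0.0986 for replicate numbers 1, 2 and 3, against -0.257 to 0.327 for tumours of unlike number. Whether the members pair by number was not tested. Members at 0 reads numbered 14, 3 and 7 in shNgb tumours 1, 2 and 3, against 18, 3 and 6 in shVec. With the replicate block the members' median log2 fold change was -0.37. That median was -0.29 in the reported fit, -0.82 with DESeq2 and -0.80 without the filter, where 36 members had a value, and -0.75 to -0.14 with 1 tumour left out. The median biological coefficient of variation was 0.316 with the strict filter (10 members) and 0.294 (without shVec 2) to 0.431 (without shNgb 1) with 1 tumour left out. The summed level in shNgb was 29.5 CPM without Tnni1. Leaving out each tumour in turn moved the difference of the sum from -22.8 to -3.07 CPM, and that of the members at 0 somewhere, chosen after the data were seen, from -4.95 to 0.44 CPM. It also turned the sign of log2 fold changes, with ranges of -1.86 to 0.26 for Actn3, -1.38 to 0.32 for Mylpf, -0.38 to 0.30 for Neb, -0.80 to 0.27 for Tnni2, -0.64 to 0.079 for Tnni1, -0.32 to 0.13 for Tnnt3, -0.33 to 0.040 for Tnnc1, -0.72 to 0.19 for Ldb3 and -0.20 to 0.41 for Fbxo32. The other 164 of 178 values of the 14 named members with a fit kept their sign and stayed past no threshold. The causes were not tested. Depth limits the 23 members below the filter to counts of reads.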
